A study of Mus musculus with 36 samples.

Results

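The 42 genes described here act at the passage of the cell from G2 into mitosis and through division: CDK1 with its cyclins and phosphatases, the mitotic kinases, the chromosomal passenger complex, the spindle assembly checkpoint, the anaphase switch, centromere and kinetochore proteins, kinesins, and proteins of the mitotic chromosome, spindle and cleavage furrow. They were chosen by name from textbook roles, but with earlier results of these data known, so the choice was not blind to the outcome. All 42 were found among the 27179 mouse genes of the count table and among the 12321 that had enough counts to be tested. RNA sequencing had been performed on 3 mouse lymphoma lines of Em-myc background, called 287, AH47A and 621. Each line expressed the mutant TRP53 protein G280, I192S, R246Q, R270H or V170M, or carried a negative control construct, and was sampled with nutlin-3a and untreated. Treated cultures had 5 µM nutlin-3a, which frees the cell's own p53 from its inhibitor MDM2, for 12 hours together with 25 µM QVD-OPH, a broad caspase inhibitor. The labels do not say whether untreated cultures received the caspase inhibitor, so a nutlin response below can include its effect.

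Each of the 36 libraries was the only one of its line, construct and treatment, so that a line under one treatment is represented by 6 libraries that differ in construct. P-values therefore measure the spread between libraries within these lines. With 1 line set against the other 2, an exact permutation test over lines cannot give a p below 0.333, and no statement extends beyond these lymphoma lines. The sequences of the constructs are not in the files: the design text calls the proteins human, and counts are on mouse genes.

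Entry into mitosis is driven by CDK1 bound to cyclin A and cyclin B, which Wee1 and Myt1 hold back and CDC25 phosphatases release. Polo-like and Aurora kinases then build the spindle, the checkpoint proteins hold back the anaphase-promoting complex until chromosomes are attached, and its activator CDC20 afterwards triggers the loss of cyclin B and securin. Transcription of these genes peaks in G2 and mitosis. In human and mouse cells, activated p53 is known to lower many of them through p21 and the DREAM complex, whose MuvB core binds a cell cycle genes homology region, usually TTTGAA, that often stands downstream of CCAAT boxes.

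These elements were searched for in RefSeq promoter windows (GRCm38.p6), which were found for 35 of the 42 genes. A window runs from 250 bases before to 50 bases after a listed start, which is not always the outer end of the gene. The windows of Aurka, Cdc25b, Ect2, Kif2c and Pttg1 lie inside the annotated gene. TTTGAA on either strand was present in 23 of 35 windows (65.7%), against 14.5% of 9360 tested genes with a window. TTCGAA, a variant of it, was present in 4 (11.4%, against 2.61%), and CCAAT on either strand in 26 (74.3%, against 43.8%). A window with either hexamer and CCAAT was found for 22 genes (62.9%, against 7.17%). TTCGAA is its own reverse complement, and a window with both hexamers was counted once under either. A match describes letters in a window and is not evidence of binding. Other variants of the homology region were not searched, so a window without either hexamer may still hold one.

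The sequences of 7 promoters are shown because they set the genes with and without the hexamer side by side: 5 with it, Ccnb1, which fell most in line 287, without it, and Gtse1, which rose most. Each is a stretch of at most 100 bases of the window, outside the annotated gene, and runs 5′ to 3′ on the gene's strand. Capitals mark the hexamer (TTTGAA, or TTCAAA where it lies on the other strand) and the CCAAT box (CCAAT or ATTGG).
Cdk1 (chr10:69352913-69353012, minus strand): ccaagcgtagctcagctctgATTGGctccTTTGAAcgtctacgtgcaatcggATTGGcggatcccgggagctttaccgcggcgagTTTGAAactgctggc
Ube2c (chr2:164769829-164769928, plus strand): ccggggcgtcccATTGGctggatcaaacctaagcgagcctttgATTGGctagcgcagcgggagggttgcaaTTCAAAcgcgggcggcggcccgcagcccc
Cdc20 (chr4:118437344-118437443, minus strand): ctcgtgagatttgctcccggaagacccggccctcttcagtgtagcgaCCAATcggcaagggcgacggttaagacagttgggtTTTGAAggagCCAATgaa
Kif11 (chr19:37376282-37376381, plus strand): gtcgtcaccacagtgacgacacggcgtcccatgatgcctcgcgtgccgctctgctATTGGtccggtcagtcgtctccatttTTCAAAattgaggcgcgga
Top2a (chr11:99024200-99024289, minus strand): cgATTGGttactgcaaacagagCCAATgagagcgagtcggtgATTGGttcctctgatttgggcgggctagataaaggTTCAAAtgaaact
Ccnb1 (chr13:100786487-100786586, minus strand): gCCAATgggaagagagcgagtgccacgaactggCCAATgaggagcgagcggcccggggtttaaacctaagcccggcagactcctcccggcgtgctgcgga
Gtse1 (chr15:85859607-85859690, plus strand): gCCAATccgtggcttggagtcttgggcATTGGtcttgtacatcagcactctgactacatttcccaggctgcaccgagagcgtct

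Libraries held 5404113 to 10718302 counts on genes. Levels are given as CPM, counts scaled by TMM to a common library size. The B cell markers Cd79a, Cd79b, Pax5, Ebf1 and Blnk had means between 75.1 and 364 CPM in every line and treatment, and Ms4a1 (CD20) had at most 4.51 CPM. Erythroid markers summed to at most 4.32 CPM and fibroblast markers to at most 2.87 CPM. T cell markers, mostly Lck and Zap70, reached 37.7 CPM, and Cd3e or Cd8a was at 0 in all 6 libraries of each line and treatment. The 6 myeloid markers summed to 34.3 to 54.0 CPM in nutlin libraries of 287 and to 14.4 to 23.1 CPM in untreated 287, most of it Itgam, against 5.99 to 27.0 CPM in nutlin and 3.78 to 7.28 CPM in untreated libraries of the other lines; the part of these markers in the results was not tested. Counts on mouse Trp53, which can hold reads from a construct, lay between 206 and 2587 CPM over the libraries and were higher by 0.76 on the log2 scale in untreated 287 than in the mean of the other lines (adjusted p = 8.17e-05). In bulk RNA, fewer cells in G2 and mitosis and less RNA per cell cannot be told apart.

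Most of the G2/M and mitosis genes fell with nutlin-3a in line 287, and fewer did in the other lines. In 287, 36 of 42 genes fell and 3 rose by edgeR's quasi-likelihood test (adjusted p under 0.05 over all tested genes), where 35.7% of all tested genes fell and 36.2% rose. In AH47A 14 fell and 9 rose (22.2% and 21.4% of all genes), and in 621 17 fell and 7 rose (28.6% and 26.4%). The 14 in AH47A became 9 when line 621 was left out of the fit. The median log2 change of the 42 genes was -0.72 in 287, -0.02 in AH47A and -0.10 in 621, beside medians of -0.00, -0.01 and -0.03 over all tested genes. By more than 1 on the log2 scale, 13 genes fell in 287 and none in AH47A or 621, where 8.25%, 1.08% and 2.92% of all tested genes did.

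Summed over the 42 genes, nutlin libraries of 287 held 5193 to 5533 CPM (5411 ± 130.0, SD, n = 6), against 7423 to 7651 CPM untreated (7515 ± 85.2). AH47A had 8711 ± 296 CPM with nutlin and 8984 ± 193 CPM untreated, and 621 had 7975 ± 228 CPM and 8513 ± 162 CPM. The sums with and without nutlin were far apart in 287, overlapped in AH47A and lay side by side without overlap in 621. Within a line, the ratio of the nutlin to the untreated library of the same construct was 0.687 to 0.744 in 287, 0.940 to 0.999 in AH47A and 0.905 to 0.979 in 621. Every construct in 287 thus gave a ratio below every construct of the other lines. By construct, 33 genes were lower with nutlin in all 6 constructs of 287 and 3 were higher in all 6, where 34.6% and 34.7% of all tested genes were. AH47A had 15 and 8 such genes (22.1% and 19.5% of all genes) and 621 had 16 and 6 (24.7% and 22.7%).

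**Figure D1:**
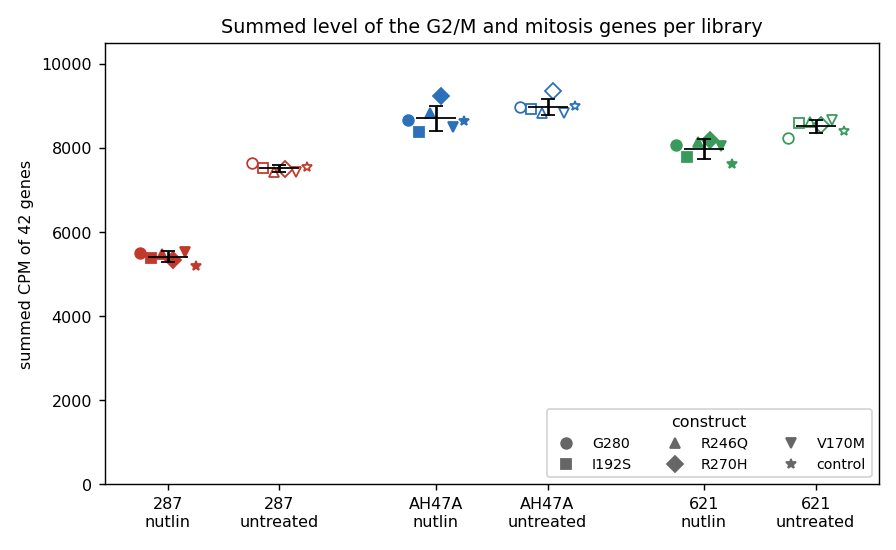
Summed CPM of the 42 genes (y axis) in each library, by line and treatment (x axis), with one symbol per construct, filled for nutlin-3a and open for untreated; the black bar is the mean and its whiskers the SD (n = 6). The nutlin libraries of 287 lie at 5193 to 5533 CPM, below every other library.

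Counted by libraries, 32 genes were lower in all 6 nutlin libraries of 287 than in any untreated one and 3 were higher, where 26.4% and 28% of all tested genes separated in these directions. The same counts were 8 and 5 in AH47A (11.4% and 10.2% of all genes) and 14 and 3 in 621 (15% and 14.6%). An F test across the 3 lines found a difference in response for 40 of 42 genes, where 60.3% of all tested genes had one.

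**Figure D2:**
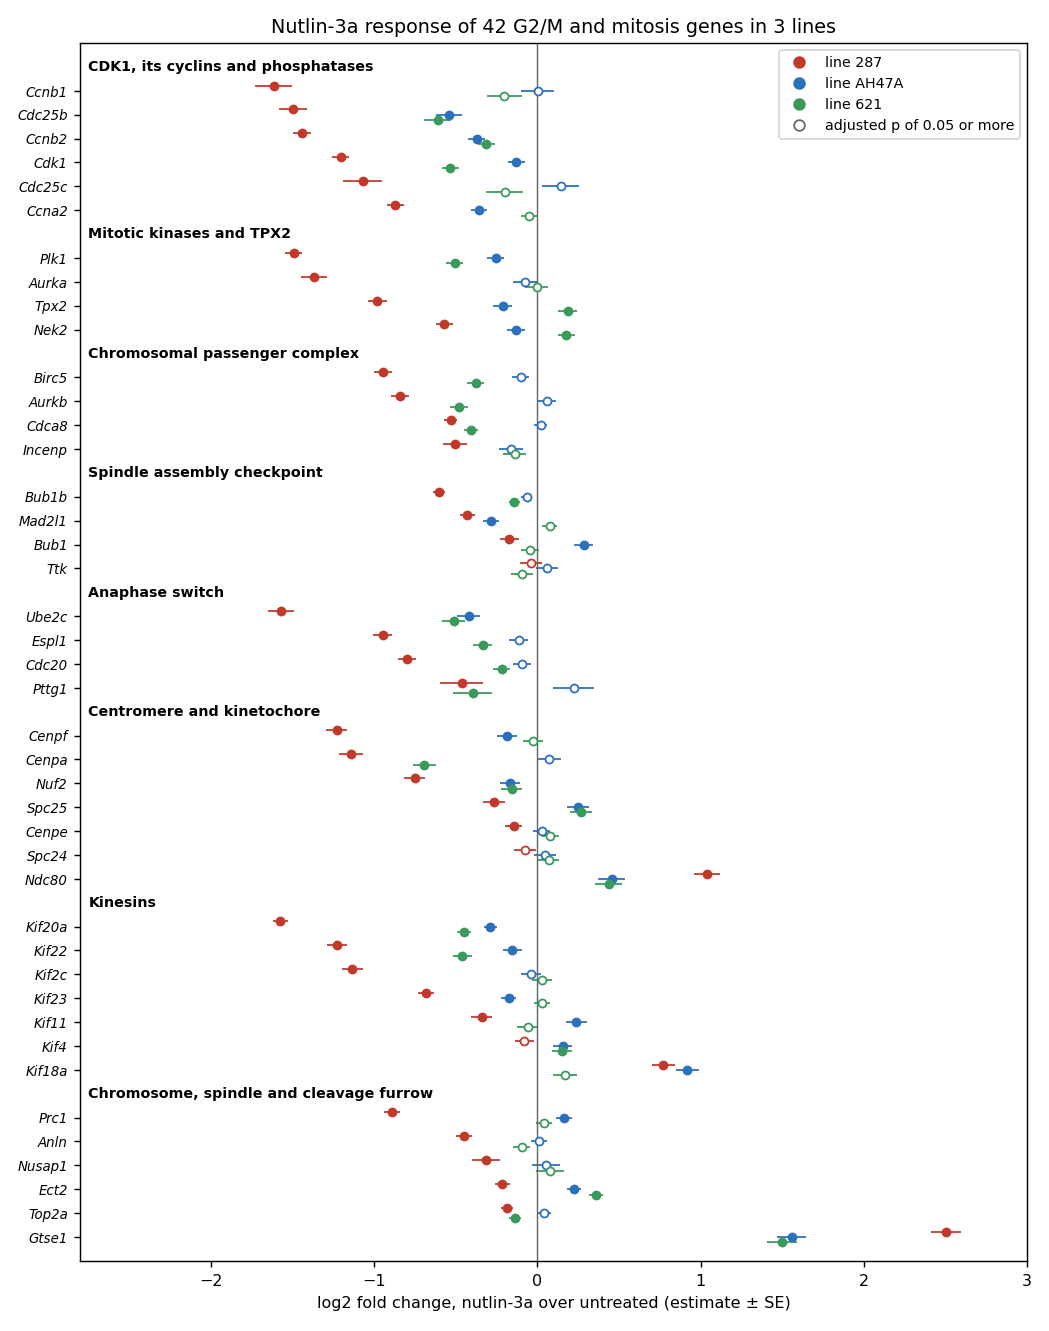
Log2 fold change with nutlin-3a (x axis, estimate ± SE) of each gene in 287 (red), AH47A (blue) and 621 (green), grouped by role and sorted by the change in 287; open points did not pass adjusted p under 0.05. The red points of 36 genes lie below 0 and past the test, and Ndc80, Kif18a and Gtse1 lie above 0.

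The cyclin-dependent kinase and its partners showed the deepest losses: all 6 fell in 287, with a median of -1.32. Cdk1, the kinase itself, had 55.1, 72.9 and 82.7 CPM (lowest, median and highest) in nutlin libraries of 287 and 153, 166 and 170 CPM untreated. In AH47A it had 125, 149 and 174 CPM with nutlin and 152, 165 and 175 CPM untreated, and in 621 it had 90.6, 112 and 125 CPM and 155, 157 and 164 CPM. The nutlin libraries of 287 were the lowest of all groups, those of AH47A overlapped their untreated libraries, and those of 621 did not. The log2 change was -1.21 ± 0.05 (SE) in 287, -0.13 ± 0.05 in AH47A and -0.53 ± 0.05 in 621 (adjusted p = 1.01e-17, 0.0404 and 1.45e-09). The small fall in AH47A lost its call with RLE size factors (adjusted p = 0.0575).

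Ccnb1, the B-type cyclin that carries CDK1 into mitosis, had 17.0, 23.3 and 25.8 CPM in nutlin libraries of 287, against 60.1, 68.5 and 81.6 CPM untreated. Its nutlin libraries in AH47A (56.2, 71.0 and 95.0 CPM) and in 621 (46.8, 51.2 and 64.5 CPM) overlapped the untreated ones (72.4, 74.7 and 76.9 CPM, and 50.9, 61.6 and 72.0 CPM). The log2 change was -1.62 ± 0.11 in 287 (adjusted p = 6.02e-13), 0.00 ± 0.10 in AH47A and -0.20 ± 0.11 in 621 (adjusted p = 0.998 and 0.109). The table also lists a copy named Ccnb1-ps with 18435 counts beside 17167 for Ccnb1, so reads of the pair may be split and the level is uncertain. Ccnb1-ps itself changed by -1.68 in 287, -0.25 in AH47A and -0.37 in 621 (adjusted p = 1.07e-16, 0.00792 and 0.000209).

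Ccnb2, the second B-type cyclin, fell in all lines, with log2 changes of -1.44 ± 0.05 in 287, -0.37 ± 0.05 in AH47A and -0.31 ± 0.05 in 621. Cdc25b, a phosphatase that activates CDK1, likewise fell, with log2 changes of -1.50, -0.54 and -0.61 in 287, AH47A and 621. Cdc25c, its relative that acts at mitotic entry, passed the test in 287 (-1.07 ± 0.12, adjusted p = 3.89e-09), with 0.14 ± 0.11 in AH47A and -0.20 ± 0.11 in 621 (adjusted p = 0.325 and 0.139). Ccna2, cyclin A of S phase and G2, fell, with log2 changes of -0.87 in 287 and -0.36 in AH47A, and had -0.05 in 621 (adjusted p = 0.429). Its locus overlaps Exosc9, and without a stated strand setting its reads cannot be fully told apart from that gene's.

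Among the mitotic kinases, Plk1, the Polo-like kinase of mitotic entry, had 59.8, 65.6 and 74.2 CPM in nutlin libraries of 287 and 179, 189 and 194 CPM untreated. Its nutlin libraries had 167, 191 and 201 CPM in AH47A and 119, 134 and 152 CPM in 621, against 220, 227 and 228 CPM and 179, 191 and 199 CPM untreated. Plk1 libraries separated by treatment in every line, with changes of -1.49 ± 0.05, -0.26 ± 0.05 and -0.51 ± 0.05 in 287, AH47A and 621 (adjusted p = 1.70e-19, 0.000152 and 3.26e-09). Aurka, the Aurora kinase of the spindle pole, had 20.9, 23.0 and 26.3 CPM in nutlin libraries of 287, against 55.8, 59.7 and 65.8 CPM untreated. In the other lines its nutlin libraries (115, 118 and 142 CPM in AH47A, and 87.9, 105 and 131 CPM in 621) overlapped the untreated ones (123, 134 and 137 CPM, and 102, 107 and 112 CPM). The change was -1.37 ± 0.08 in 287 (adjusted p = 7.38e-15) and -0.08 and -0.01 in AH47A and 621 (adjusted p = 0.410 and 0.964). Aurka overlaps Cstf1, which changed by 0.02 in 287.

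Tpx2, which activates Aurora A on the spindle, and Nek2, a centrosome kinase, fell in 287 (-0.98 and -0.57) and in AH47A (-0.21 and -0.13) and rose in 621 (0.19 and 0.18). The Nek2 call in AH47A was lost with RLE size factors (adjusted p = 0.0619).

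All 4 genes of the chromosomal passenger complex, which corrects faulty attachments, fell in 287. The log2 changes were -0.95 for Birc5 (survivin), -0.84 for its kinase Aurkb, -0.53 for borealin Cdca8 and -0.51 for the scaffold Incenp. None of the 4 passed the test in AH47A, where values lay between -0.16 and 0.06. In 621 Birc5, Aurkb and Cdca8 fell, at -0.38, -0.48 and -0.41, and Incenp had -0.14 (adjusted p = 0.10).

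The spindle assembly checkpoint moved less, with a median of -0.30 in 287. Bub1b (BubR1), Mad2l1 (MAD2) and the kinase Bub1 fell in 287, with log2 changes of -0.60, -0.43 and -0.17, and the kinase Ttk (MPS1) had -0.04 (adjusted p = 0.616). Ttk did not pass the test in any line. Bub1 rose by 0.28 in AH47A, and Mad2l1 fell there (-0.28).

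The anaphase genes fell together in 287 and in 621. Ube2c, the ubiquitin-conjugating enzyme of the anaphase-promoting complex, had 30.1, 36.9 and 42.5 CPM in nutlin libraries of 287 and 94.8, 110 and 122 CPM untreated. It fell, with log2 changes of -1.57, -0.42 and -0.51 in 287, AH47A and 621. Cdc20, the activator of that complex, had 110, 115 and 138 CPM in nutlin libraries of 287 and 201, 207 and 210 CPM untreated. It fell, with log2 changes of -0.80 ± 0.05 in 287 and -0.22 ± 0.05 in 621, and had -0.09 in AH47A (adjusted p = 1.19e-13, 0.000999 and 0.154). Cdc20 overlaps Elovl1, which fell, with log2 changes of -0.29, -0.32 and -0.26 in the same lines. Espl1 (separase), which cuts cohesin, and its inhibitor Pttg1 (securin) fell in 287 (-0.95 and -0.46) and 621 (-0.34 and -0.40) and did not pass the test in AH47A.

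Kinetochore genes split. Those that fell in 287 were Cenpf, a large kinetochore and matrix protein (-1.23), Cenpa, the centromeric histone (-1.14), the NDC80 complex subunits Nuf2 (-0.75) and Spc25 (-0.27), and the kinetochore motor Cenpe (-0.15). Spc24 had -0.07 (adjusted p = 0.328). In the other lines Cenpa fell in 621 (-0.69, adjusted p = 2.95e-09) and had 0.07 in AH47A (adjusted p = 0.418), and Cenpf fell in AH47A (-0.19) and had -0.02 in 621 (adjusted p = 0.760). Nuf2 fell in both (-0.17 in AH47A and -0.16 in 621), whereas Spc25 rose in both (0.25 and 0.27, adjusted p = 0.00409 and 0.00168). Ndc80, the subunit that binds microtubules, rose in all 3 lines. It had 87.7, 95.8 and 103 CPM in nutlin libraries of 287, against 42.4, 45.2 and 52.1 CPM untreated, 54.0, 60.9 and 74.2 CPM against 42.5, 45.8 and 49.1 CPM in AH47A, and 40.4, 55.6 and 67.5 CPM against 33.6, 40.6 and 47.4 CPM in 621. Groups separated in 287 and AH47A and overlapped in 621. The changes were 1.04 ± 0.08, 0.45 ± 0.08 and 0.44 ± 0.08 (adjusted p = 1.97e-12, 4.85e-05 and 5.58e-05). The 4 subunits of this one complex thus gave Ndc80 higher, Nuf2 and Spc25 lower and Spc24 not past the test in 287.

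Of the 7 kinesins, Kif20a (MKLP2, which relocates the passenger complex at anaphase) fell, with log2 changes of -1.57 in 287, -0.29 in AH47A and -0.45 in 621. Kif20a overlaps Brd8 and Cdc23, which changed by 0.37 and 0.09 in 287. Kif22, a chromokinesin, Kif2c (MCAK), which shortens microtubules, Kif23 (MKLP1) of the central spindle and the bipolar motor Kif11 (Eg5) fell in 287, with log2 changes of -1.23, -1.14, -0.69 and -0.34, and Kif4 had -0.08 (adjusted p = 0.240), though it was called lower with upper-quartile scaling. Outside 287, Kif22 fell in AH47A (-0.16) and in 621 (-0.46), and Kif23 fell in AH47A (-0.18). Kif11 rose in AH47A (0.24) and had -0.06 in 621 (adjusted p = 0.461), and Kif4 rose in AH47A and in 621 (0.15 each, adjusted p = 0.0370 and 0.0343). Kif18a, which dampens chromosome movements at the metaphase plate, rose by 0.77 in 287 and 0.92 in AH47A, and had 0.17 in 621 (adjusted p = 0.0559). Kif18a overlaps Mettl15, which rose by 1.09 in 287, 1.00 in AH47A and 0.85 in 621, so the count of Kif18a is uncertain.

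Prc1, which bundles the central spindle, Anln (anillin) and the GTPase activator Ect2 of the cleavage furrow, and Nusap1, a spindle and nucleolar protein, fell in 287, with log2 changes of -0.89, -0.45, -0.21 and -0.31. Prc1 and Ect2 rose in AH47A (0.16 and 0.23), and Ect2 also rose in 621 (0.36). Prc1, Anln and Nusap1 overlap Rccd1, 9530077C05Rik and Oip5, and their counts carry that uncertainty. Top2a, the topoisomerase that untangles chromosomes and by length the most abundant of the 42 (214 CPM per kilobase over all libraries), had 956, 1089 and 1120 CPM in nutlin libraries of 287 and 1183, 1218 and 1239 CPM untreated. Its change was -0.19 ± 0.04 in 287 and -0.14 ± 0.04 in 621, and 0.04 ± 0.04 in AH47A (adjusted p = 9.21e-05, 0.00313 and 0.395), well under that of the CDK1 group.

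Gtse1 rose in every line. It codes for a microtubule-associated protein of G2 and S phase and is known in mouse cells as a p53-induced gene. It had 361, 498 and 672 CPM in nutlin libraries of 287, against 77.5, 87.2 and 98.8 CPM untreated, 213, 283 and 443 CPM against 87.6, 98.0 and 101 CPM in AH47A, and 179, 193 and 312 CPM against 71.8, 77.6 and 83.1 CPM in 621. No nutlin library overlapped an untreated one. The changes were 2.50 ± 0.09, 1.56 ± 0.09 and 1.50 ± 0.09 in 287, AH47A and 621 (adjusted p = 1.89e-18, 2.89e-13 and 5.79e-13).

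**Figure D3:**
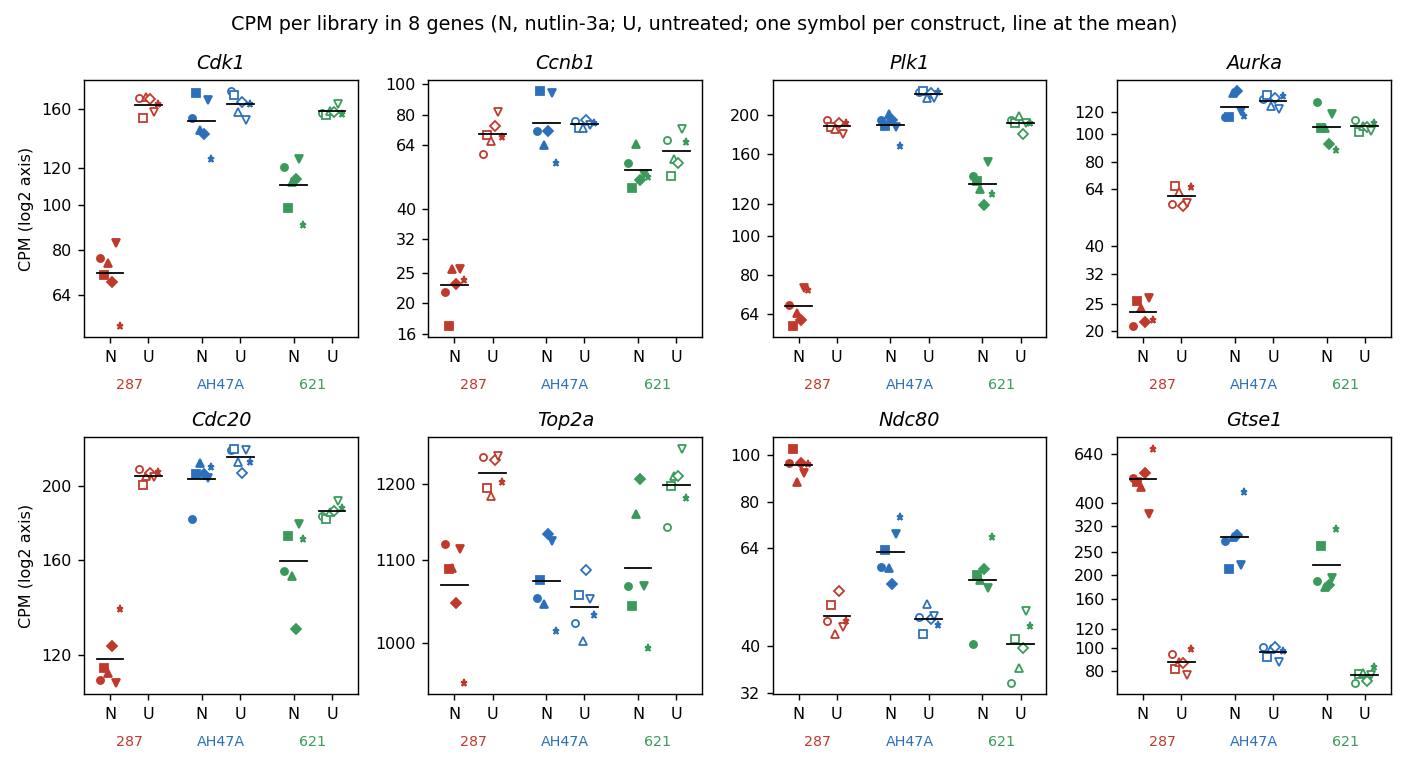
CPM (log2 y axis, each panel on its own range) of 8 genes in every library, with nutlin (N, filled) left of untreated (U, open) for each line; one symbol per construct and a line at the mean. Cdk1, Ccnb1, Plk1, Aurka and Cdc20 separate by treatment most in 287, and Ndc80 and Gtse1 are higher with nutlin.

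The difference between the lines in response was then tested directly, as the response of 287 minus the mean response of AH47A and 621. By edgeR, 36 of 42 genes had a lower response in 287 and 3 a higher one, where 22.5% and 24% of all tested genes did. The median difference was -0.60, against 0.02 over all tested genes. The 10 largest were Ccnb1 (-1.52 ± 0.13), Aurka (-1.33 ± 0.10), Kif20a (-1.20 ± 0.05), Kif2c (-1.13 ± 0.08), Cenpf (-1.12 ± 0.08), Plk1 (-1.11 ± 0.06), Ube2c (-1.10 ± 0.09), Ccnb2 (-1.10 ± 0.07), Cdc25c (-1.04 ± 0.14) and Prc1 (-0.99 ± 0.06), with adjusted p between 8.38e-16 (Kif20a) and 7.63e-07 (Cdc25c). Cdk1 differed by -0.87, Cdc20 by -0.64 and Top2a by -0.14 (adjusted p = 9.55e-12, 4.92e-09 and 0.0170), and the Top2a call was lost without the filter on low counts (adjusted p = 0.0570).

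Gtse1 and Ndc80 had a higher response in 287, by 0.98 ± 0.11 and 0.59 ± 0.10 (adjusted p = 3.90e-08 and 1.23e-05). Kif18a was called higher by 0.23 ± 0.09 (adjusted p = 0.0335), but only against 621 (0.61, adjusted p = 2.17e-05) and not against AH47A (-0.15, adjusted p = 0.248). Without line 621 the difference was -0.22, and with upper-quartile scaling the call was lost (0.18, adjusted p = 0.0913). Ttk, Spc24 and Pttg1 did not pass the test. Tested against each line separately, 31 genes responded lower in 287 than in both AH47A and 621, and Ndc80 and Gtse1 higher than in both, where 13% and 13.9% of all tested genes did.

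By role, the median difference was -0.98 for CDK1, its cyclins and phosphatases (6 of 6 lower), -1.04 for the mitotic kinases and TPX2 (4 of 4), -0.68 for the anaphase switch (3 of 4), -0.61 for the kinesins (6 of 7), -0.52 for centromere and kinetochore (5 of 7), -0.49 for the passenger complex (4 of 4), -0.39 for chromosome, spindle and furrow (5 of 6) and -0.31 for the checkpoint (3 of 4). The order runs through few genes per role and was not tested.

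Housekeeping genes also fell in 287. Actb had a mean of 986 CPM with nutlin and 2674 CPM untreated, and changed by -1.45 in 287, -0.36 in AH47A and -0.58 in 621. Hprt changed by -0.53, -0.16 and -0.29 and Tbp by -0.23, -0.27 and 0.12 (the last with adjusted p = 0.0656). The difference of 287 from the other lines was -0.98 for Actb and -0.31 for Hprt. CPM are relative levels, and whether total RNA per cell changed was not measured.

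Lines differed less before treatment. In untreated cultures 17 of 42 genes were lower in 287 than in the mean of AH47A and 621 and 3 were higher (27.9% and 30.7% of all tested genes), with a median of -0.07 against 0.02 over all genes. The 3 higher ones became 8 without AH47A, where 287 is set against 621 alone, and 5 without 621, where 287 is set against AH47A alone. The lower ones were led by Ube2c (-1.21), Ccna2 (-0.97), Aurka (-0.97), Incenp (-0.64) and Pttg1 (-0.58), the 5 that differed by more than 0.5. Ube2c had 94.8, 110 and 122 CPM in untreated 287, against 282, 294 and 304 CPM in AH47A and 196, 215 and 241 CPM in 621. Ccna2 had 359, 372 and 404 CPM in untreated 287, against 759, 789 and 821 CPM in AH47A and 667, 690 and 705 CPM in 621. Neither gene's 287 libraries overlapped those of the other lines.

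The next lower ones in untreated 287 were Cenpe (-0.46), Ect2 (-0.44), Kif11 (-0.40), Cdca8 (-0.35) and then Nuf2. Nuf2 was not lower than both other lines when each was tested separately. Birc5 was also lower (-0.30), and the 3 higher ones were Spc25 (0.19), Ccnb2 (0.17) and Top2a (0.12). Cdk1, Ccnb1, Cdc20, Ndc80 and Gtse1 differed by 0.02, 0.04, 0.04, 0.11 and 0.03 (adjusted p = 0.721, 0.712, 0.494, 0.199 and 0.803), and Plk1 by -0.14 (adjusted p = 0.00644). Against both lines, 9 genes were lower in untreated 287 and none higher, where 15.8% and 16.1% of all tested genes were. In 9 genes every untreated library of 287 lay below every untreated library of the other lines, and in none above (10.5% and 10.6% of all genes).

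With nutlin, 37 of 42 genes were lower in 287 than in the mean of the other lines and 3 higher (34.1% and 40.4% of all genes), with a median of -0.84 against 0.05. Of these 37 genes, 17 were also lower in untreated 287 and 20 were not. The largest differences under nutlin were Ube2c (-2.32), Aurka (-2.30), Ccna2 (-1.64), Ccnb1 (-1.47), Plk1 (-1.25), Kif20a (-1.23), Cenpf (-1.21), Kif2c (-1.16), Cdc25b (-1.09) and Kif22 (-1.05). Cdk1 differed by -0.85 and Cdc20 by -0.60, and Gtse1, Ndc80 and Kif18a were higher by 1.00, 0.70 and 0.28, with -0.09 for Kif18a without line 621. Top2a had -0.02 (adjusted p = 0.648). Against each line separately, 35 genes were lower than in both and 2 higher (23.4% and 27.4% of all genes). In 30 genes every nutlin library of 287 lay below every nutlin library of the other lines, and in 1 above (12.3% and 15% of all genes).

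Other cell cycle genes were read from lists of named pathways. Of 44 further mitosis genes, 36 fell and 4 rose in 287 (median -0.54), against 15 fallen and 10 risen in AH47A (-0.02) and 15 and 12 in 621 (-0.06). The shares that fell were 81.8% in 287, 34.1% in AH47A and 34.1% in 621, beside the 35.7%, 22.2% and 28.6% of all tested genes given above. The lowest were Kpna2 (-2.06), an importin, and Pimreg (-1.82), and the highest were Psrc1 (4.56), a spindle protein also known as a p53-induced gene in mouse, and Kifc1 (0.98), a minus-end kinesin. Psrc1 rose by 2.98 in AH47A and 3.79 in 621. Mki67, the gene of the proliferation marker Ki-67, had -0.07 in 287 (adjusted p = 0.395), fell in AH47A (-0.26, adjusted p = 0.00625) and had 0.01 in 621 (adjusted p = 0.893).

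Of 46 replication and G1/S genes, 28 fell and 6 rose in 287 (median -0.21), 22 and 2 in AH47A (-0.12) and 26 and 2 in 621 (-0.19). The shares that fell were 60.9%, 47.8% and 56.5%, each above that of all tested genes in the line. In 287 Orc1 (-1.47) and Rpa3 (-1.27) fell most, and Pola1 (0.36) and Cdt1 (0.35) rose most. The median difference of 287 from the other lines was -0.12 for these genes, with 19 lower and 7 higher, beside -0.56 for the further mitosis genes, with 36 lower and 3 higher, where 22.5% of all tested genes were lower and 24% higher.

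The remaining lists are given beside the 35.7% of all tested genes that fell and 36.2% that rose in 287. Of 33 further kinetochore genes 15 fell and 9 rose (45.5% and 27.3%), led by Cenpb (-1.30) and Cenpw (-1.29) downward and Dsn1 (0.93) and Hjurp (0.74) upward. Of 17 subunits and regulators of the anaphase-promoting complex, 10 fell and 3 rose (58.8% and 17.6%), with Anapc10 (-0.72), Anapc11 (-0.70), Anapc16 (0.95) and Cdc27 (0.33) at the ends. Of 15 cohesin genes 6 fell and 6 rose, 40% each and near the shares of all genes (Rad21 -0.43 and Sgo1 -0.35, Nipbl 0.98 and Wapl 0.67). Of 8 condensin genes 3 fell and 2 rose, 37.5% and 25.0% (Ncaph2 and Ncapd2 at -0.40 each, Smc4 0.93 and Ncapd3 0.22).

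**Figure D4:**
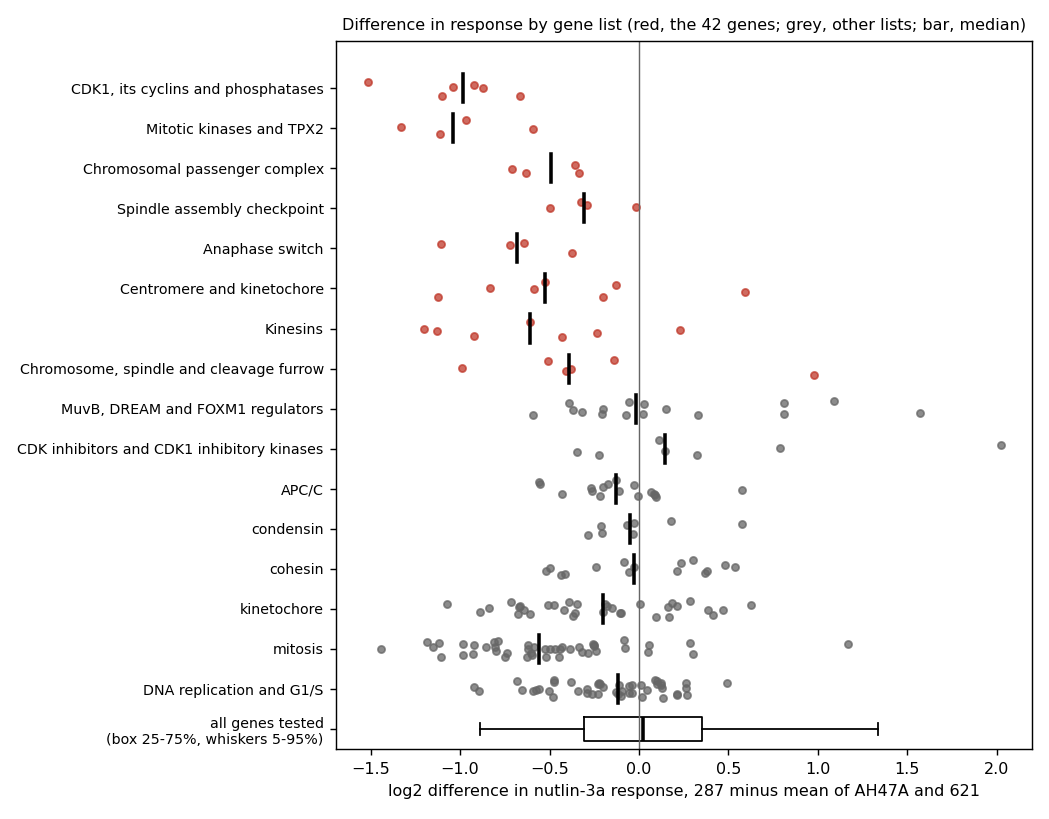
Log2 difference in nutlin response, 287 minus the mean of AH47A and 621 (x axis), of each gene in the roles of the 42 genes (red) and in the other lists (grey), with the list median as a black bar; the box shows the quartiles and 5th to 95th percentiles of all tested genes. Medians of the red roles lie between -1.04 and -0.31, that of the further mitosis list at -0.56, and those of the remaining lists between -0.20 and 0.15.

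Of the CDK inhibitors, Cdkn1a, which codes for the p53 target and CDK inhibitor p21, had 294 to 605 CPM in nutlin and 3.08 to 5.81 CPM in untreated libraries of 287. It had 131 to 398 and 0.255 to 1.15 CPM in AH47A, and 104 to 234 and 2.37 to 6.39 CPM in 621, so that no nutlin library overlapped an untreated one. The changes were 6.58, 8.27 and 5.34, so that the response of 287 lay below that of AH47A and above that of 621, and differed from the mean of both by -0.23 (adjusted p = 0.556). The change in AH47A rests on an untreated mean of 0.671 CPM, near the floor, so its size is uncertain. Under nutlin the mean level was highest in 287, at 446 CPM, against 214 CPM in AH47A and 152 CPM in 621. Cdkn1b (p27) rose in 287 by 1.11 ± 0.10, more than in the other lines (difference 0.79, adjusted p = 6.56e-06). Cdkn1c (p57) rose there by 1.77 with a wide SE of 0.64 (adjusted p = 0.0151). It had 0.05 ± 0.35 in AH47A and -0.55 ± 0.87 in 621 (adjusted p = 0.938 and 0.624). Of the kinases that hold CDK1 inactive, Wee1 fell in 287 (-0.48) and Pkmyt1 (Myt1) rose (0.19, adjusted p = 0.0442). Both Wee1 and Pkmyt1 fell in 621 (-0.24 and -0.38, adjusted p = 0.00313 and 0.000444). Neither passed the test in AH47A (-0.03 and 0.10, adjusted p = 0.748 and 0.354). The inhibitor genes Cdkn2c (0.13) and Cdkn2d (-0.19) did not pass the test in 287 (adjusted p = 0.332 and 0.316). Cdkn2d fell in 621 (-1.07, adjusted p = 3.69e-06) and rose in AH47A (0.40, adjusted p = 0.0443), whereas Cdkn2c passed the test in neither.

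Of 16 genes of the MuvB core, the DREAM complex and its partners, 7 rose and 7 fell in 287, 43.8% each beside the 36.2% and 35.7% of all tested genes. The pocket protein genes Rb1, Rbl2 (p130) and Rbl1 (p107) rose by 1.88, 1.42 and 0.99, and exceeded the response of the other lines by 1.09, 0.81 and 0.81. Of the E2F and DP transcription factor genes in this list, Tfdp1, E2f8, E2f4 and E2f7 fell in 287, with log2 changes of -1.02, -0.83, -0.54 and -0.44. Tfdp2 rose there (0.26), and E2f5 did not pass the test (-0.17, adjusted p = 0.120). Tfdp1, E2f8, E2f4 and E2f7 also fell in AH47A (-0.50, -0.63, -0.48 and -0.44) and in 621 (-0.35, -0.25, -0.19 and -0.48). Foxm1, the activator of G2/M transcription, fell in each line, with log2 changes of -0.28 in 287, -0.21 in AH47A and -0.25 in 621, with no difference past the test (-0.06, adjusted p = 0.666). The MuvB subunit Lin9 changed by -0.20 and its DNA-binding subunit Lin54 by 0.35 in 287, both past the test. Mybl2 (B-MYB), the partner of MuvB in activation, rose by 1.46 in 287, with a mean of 137 CPM under nutlin and 49.5 CPM untreated. It had 101 and 100.2 CPM in AH47A and 96.8 and 114 CPM in 621, and its response differed between 287 and the other lines by 1.57 (adjusted p = 1.37e-13). Mybl2 had been lower in untreated 287 by -1.11.

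Promoter letters and response were set side by side without a test. The 25 genes with either hexamer in the window had a median response of -0.80 in 287, between -1.57 and 1.04, and 22 of them fell. The 10 genes without one had a median of -0.45, between -1.62 (Ccnb1) and 2.50 (Gtse1), and 8 of them fell. Most genes thus fell both with and without a hexamer, where 35.7% of all tested genes fell in 287. The calls therefore show no clear contrast between the 25 and the 10 genes, and a difference in their medians was not tested. The printed genes with the hexamer and CCAAT boxes all fell, but the genes to print were picked with results known. Ube2c changed by -1.57, Cdk1 by -1.21, Cdc20 by -0.80, Kif11 by -0.34 and Top2a by -0.19. Among genes with a hexamer that were not printed, Ndc80, without CCAAT in its window, rose (1.04). Kif4 (-0.08) and Ttk (-0.04), with both the hexamer and CCAAT in the window, did not pass the test.

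The constructs ask whether a mutant protein changes the response of these genes to the cell's own p53. In the mean of 5 mutants minus control, the nutlin response of 3 genes was higher and that of 1 lower (1.85% and 1.53% of all tested genes): Cdk1 (0.35 ± 0.08, adjusted p = 0.0140), Ccna2 (0.29 ± 0.08, 0.0391) and Kif20a (0.25 ± 0.07, 0.0348) fell less in mutants than in the control, and Gtse1 (-0.53 ± 0.14, 0.0316) rose less. With the replicate block, the paired fit, 4 were higher and 1 lower, beside 4.78% and 4.46% of all tested genes. Not past the test were Aurka (0.27, adjusted p = 0.203), Ccnb1 (0.22, 0.546), Top2a (0.13, 0.248), Plk1 (0.07, 0.737), Cdc20 (-0.15, 0.379) and Ndc80 (-0.20, 0.442). Cdk1 changed by -1.29 to -0.93 in the 5 mutants and by -1.57 in the control of 287, by -0.23 to 0.14 and -0.39 in AH47A, and by -0.65 to -0.39 and -0.78 in 621. Gtse1 changed by 2.21 to 2.60 in the mutants and 2.76 in the control of 287, by 1.22 to 1.54 and 2.19 in AH47A, and by 1.18 to 1.76 and 1.90 in 621. In all 3 lines the control lay beyond every mutant for these genes.

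The responses of all 5 mutants lay above the control in all 3 lines for 6 of 42 genes (Cdk1, Ccna2, Cdc25c, Bub1b, Kif20a and Top2a) and below it for 1 (Gtse1), where 4.68% and 4.98% of all tested genes did. The mutants share the same control libraries, so these genes are not independent evidence for each mutant. The 4 calls on the mean of mutants are not firm. None of the 4 passed the test in a model without the line by treatment term, without line 287 or without AH47A. Without 621, 1 lower call was left. Over all tested genes, the model without that term called 0% higher and 0% lower. Leaving out 287, AH47A or 621 left 0.0167%, 0.35% and 0.293% higher and 0.00833%, 0.171% and 0.318% lower. These fits thus lost calls among all genes, so they do not single out the 4. The control nutlin library of AH47A stood apart for Gtse1, at 443 CPM against 213 to 294 CPM in the mutants.

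Under nutlin, 10 genes were higher and 3 lower in the mutants than in the control (7.22% and 8.76% of all genes). The higher ones were Cdc25b and Cdc25c (0.40 each), Cdk1 (0.36), Ccna2 (0.26), Kif22 (0.24), Nuf2 (0.21), Kif20a (0.20), Kif2c (0.20), Prc1 (0.18) and Top2a (0.15), and the lower ones were Gtse1 (-0.64), Kif18a (-0.25) and Ect2 (-0.15). Cdk1 had 68.3 to 82.7 CPM in the mutants and 55.1 CPM in the control of 287, 141 to 174 and 125 CPM in AH47A, and 98.6 to 125 and 90.6 CPM in 621. In the model without the line by treatment term none of these 13 passed the test, and without 1 line at a time 3 to 5 higher and 1 lower were left. Over all tested genes, that model called 0.243% higher and 0.755% lower. Fits without 1 line called 3.44% to 4.75% higher and 4.55% to 5.27% lower.

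In untreated cultures none of the 42 genes differed between mutants and control by edgeR or by DESeq2, and none had an unadjusted p under 0.05 by edgeR, where 0.00812% of all tested genes were higher and 0.00812% lower. Of single mutants, V170M alone had response calls among the 42: Cdk1 by 0.51 ± 0.10 (adjusted p = 0.00677) and Gtse1 by -0.66 ± 0.18 (adjusted p = 0.0356), where 1.81% and 1.83% of all genes were higher and lower. Whether V170M differs from the other mutants is not shown by this, and an F test of the response over the constructs called none of the 42 genes (0.0162% of all genes). Among the other 4 mutants, 0.179% of all genes passed the test for G280, 0.00812% for I192S, 0.0243% for R246Q and 0% for R270H.

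**Figure D5:**
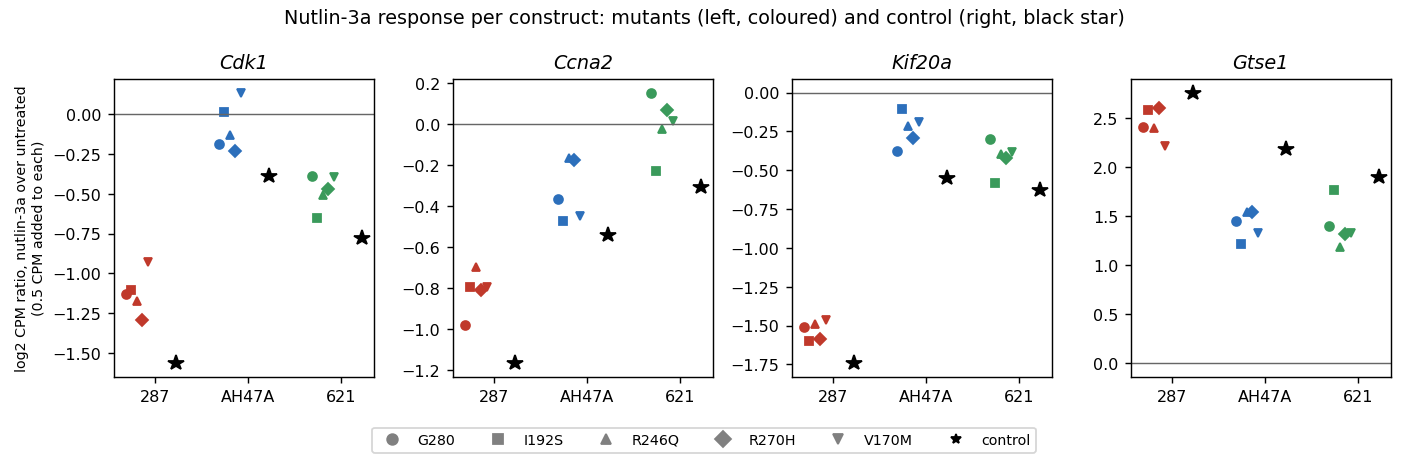
Log2 ratio of nutlin to untreated CPM (y axis, 0.5 CPM added to each) per construct in 287, AH47A and 621 (x axis) for Cdk1, Ccna2, Kif20a and Gtse1; coloured symbols are the 5 mutants and the black star right of them is the control. The control lies below all 5 mutants in every line for Cdk1, Ccna2 and Kif20a and above them for Gtse1.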

How the data were processed

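RNA sequencing of 36 libraries was analysed from the authors' deposited table of whole-number counts per gene, which matched all 36 per-sample files. The submitters' processing notes name featureCounts, bcl2fastq 1.8.4 and the mm10 (GRCm38) build. No aligner, annotation or strand setting is named in these sources, so overlapping genes cannot be fully told apart. Libraries held 5404113 to 10718302 counts, and replicate libraries of a line and treatment differed by more than sampling noise.

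CPM were computed here from the deposited counts with TMM scaling (factors 0.949 to 1.07). Genes with too few counts were dropped by filterByExpr (minimum count 10), which kept 12321 genes. The main test was edgeR 4.0.16 in R 4.3.3, a robust quasi-likelihood fit on all 36 libraries with construct by treatment means, line and line by treatment (20 residual degrees of freedom). P-values were adjusted by Benjamini-Hochberg over all tested genes, with a threshold of 0.05. Responses per construct used log2(CPM + 0.5). The test was checked on simulated data.

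The nutlin and untreated library of the same line and construct form 18 pairs. Their deviations correlated in 18 of 18 pairs by more than 0.1 (0.106 to 0.510), so they pair the samples, and the paired fit is an alternative. Others were RLE and upper-quartile scaling, no filter, DESeq2 1.42.0, no construct term, no line by treatment term, and leaving out each construct or line.

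The members and gene lists were chosen with earlier results of these data known. The text accounts for all 42. It gives values for up to 10 called members with the largest difference in each main comparison, for those called the other way, and for Cdk1, Ccnb1, Plk1, Aurka, Top2a, Cdc20, Gtse1 and Ndc80 in any case. Of the other lists, the 2 largest rises and falls are named, with a fixed set of regulators. Rbl1, Rbl2, E2f5, E2f7, Tfdp2, Pkmyt1, Cdkn2c, Cdkn2d and Ms4a1 were named after their values were seen. One B cell marker is not reported here.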

Additional observations from a re-analysis of the deposited data

Results flagged for a closer look

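Among 258 groups of 6 libraries tested for one that stood apart, 13 held such a library, and chance gives about 1 in 20. Summed over the 42 genes, the R270H library of untreated AH47A had 9351 CPM, against 8824 to 8988 CPM in the others. In AH47A under nutlin, R246Q had 130.3 CPM of Nek2 (109 to 112 in the others), R270H had 670.4 CPM of Incenp (492 to 519), G280 had 181 CPM of Cdc20 (205 to 215), and the control had 213 CPM of Ect2 (184 to 194) and 443 CPM of Gtse1 (213 to 294). In 621 under nutlin, R270H had 182 CPM of Nek2 (143 to 155) and 390.0 CPM of Tpx2 (340.1 to 359). In untreated 621, R246Q had 189 CPM of Birc5 (167 to 175) and V170M had 137 CPM of Cenpa (109 to 114). The control of untreated AH47A had 40.3 CPM of Spc25 (32.5 to 35.2), and I192S of untreated 287 had 149 CPM of Kif23 (137 to 139) and 115 CPM of Kif4 (104 to 107).

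The nutlin response differed between 287 and the mean of AH47A and 621 in the test of that difference, with 36 genes lower and 3 higher. On the log2 scale the differences were -1.52 for Ccnb1, -1.33 for Aurka, -1.20 for Kif20a, -1.13 for Kif2c, -1.12 for Cenpf, -1.11 for Plk1, -1.10 for Ube2c, -1.10 for Ccnb2, -1.04 for Cdc25c, -0.99 for Prc1, -0.87 for Cdk1, -0.64 for Cdc20 and -0.14 for Top2a. They were 0.98 for Gtse1, 0.59 for Ndc80 and 0.23 for Kif18a.

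The response also differed between the mean of the 5 mutants and the control, by 0.35 for Cdk1, 0.29 for Ccna2, 0.25 for Kif20a and -0.53 for Gtse1.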

How the results depend on the processing

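The lower response of 287 against the mean of the other lines covered 34 to 37 genes when 1 construct or line was left out, and 37 lower and 3 higher with the replicate block, the paired fit, which moved no count of the 42 genes' calls by over 1.5 times. Over all tested genes, it moved the response of mutants minus control to 4.78% higher and 4.46% lower. The calls on mutants against control were the least stable. Without the line by treatment term, the response gave 0 higher and 0 lower and the level under nutlin 0 higher and 0 lower (for the level, chosen after seeing the data). Without 1 line at a time the response gave 0 higher and 0 to 1 lower, and the level under nutlin 3 to 5 higher and 1 lower. These fits also called fewer of all tested genes. Lower calls in AH47A ranged between 9 and 14 when 1 construct or line was left out (9 without line 621) and were 15 with the replicate block. With 1 left out, the genes higher in untreated 287 numbered 3 to 8 (8 without AH47A, 5 without 621). Leaving out AH47A or 621 sets 287 against the remaining line alone, so the comparison itself changes. The cause of the other shifts was not tested.

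Sign changes are given here for 10 values, most of them near 0, and the list is not complete. Among genes called in untreated 287 against the others, 3 further sign reversals were counted over the settings and are not listed. Aurka in 621 was 0.0123 with RLE and 0.0123 with DESeq2, 0.000469 without the construct term, and -0.0584 to 0.0547 when 1 construct or line was left out. Ccnb1 in AH47A was -0.0122 with the replicate block and -0.0851 to 0.0830 with 1 left out. With 1 left out, values in untreated 287 against the others ranged between -0.0865 and 0.202 for Ccnb1, -0.0617 and 0.170 for Cdc20, -0.00113 and 0.0617 for Cdk1, and -0.116 and 0.201 for Gtse1. Kif18a ranged between -0.0883 and 0.564 under nutlin and between -0.22 and 0.56 in response, each lowest without 621, Top2a under nutlin between -0.0558 and 0.0105, and Plk1 in the response of mutants against control between -0.0173 and 0.156.

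With 1 library per line, construct and treatment, a single construct in a single line has no replicate, and a test over 3 lines cannot give an exact permutation p below 0.333.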
